A study of Homo sapiens with 6 samples.

Results

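The comparison described here is that of SH-SY5Y cells given the compound 16F16 against SH-SY5Y cells given the solvent alone. It used 4 of the 6 arrays of the series: the 2 arrays labelled 16F16 (4 µM for 24 h) and the 2 arrays labelled mock (methanol for 24 h), chosen by those labels. SH-SY5Y is a human neuroblastoma line with features of sympathetic neurons, and all groups were the same line in the same medium. The series also has 2 arrays of cells given securinine (30 µM for 24 h), which entered the estimate of the spread and a comparison at the end. Both compounds are called inhibitors of protein disulfide isomerase (PDI) in the series' design text. Expression was read on Affymetrix Human Gene 2.0 ST arrays, and all values below are on the log2 scale, so that a difference of 1 is a 2-fold change.

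PDI enzymes form, break and rearrange disulfide bonds of proteins as they fold in the endoplasmic reticulum (ER). Cells that accumulate misfolded proteins there can switch on ER chaperones, and the kinase branch of the same response runs through the transcription factor ATF4. Small molecules that react with protein thiols can also set free NRF2, a transcription factor of antioxidant genes, which is otherwise held and degraded by KEAP1. Noradrenergic neuroblastoma cells are known for catecholamine synthesis, chromaffin-type secretory vesicles and a set of neural transcription factors.

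The median log2 value of the 6 arrays lay between 4.16 and 4.23 over 53617 probe sets, of which 16098 (30.0%) had a gene name, for 14884 genes. No total count exists for arrays, and the number of arrays limits the precision. The arrays of a group are biological replicates by their labels, which do not say whether cultures were separate, so p-values reflect only the spread between these samples. The cell line carried its markers. All 13 measured noradrenergic markers, among them HAND2, GATA3, ISL1, TH, DBH and STMN2, were above the array median on each of the 4 arrays, at 5.10 to 12.50. Of 7 measured markers of epithelial, blood and endothelial cells, 3 were above it, and their range was 2.76 to 6.84. The median of those 7 was 4.18 and 4.28 on the mock arrays and 4.31 and 4.12 on the 16F16 arrays. The 2 arrays labelled 16F16 stood further apart than those of the other groups. They correlated at 0.986 across probe sets (mock 0.990), and 77 genes differed at least 2-fold between them, against 40 between the mock arrays and 27 between the securinine arrays.

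With 16F16, 107 genes rose and 116 fell at an adjusted p under 0.05 in limma, together 223 of 14884 genes (1.50%; 0.719% higher and 0.779% lower). Leaving out small RNA genes, the largest rises were those of GDF15, ANKRD1, FAT1, LINC00473 and EDA2R. The largest falls were those of NEUROG2, EFNB2, MYC, CNTNAP5 and HGF. Of the genes called, 18 rose and 34 fell at least 2-fold. The smallest difference called was 0.51, and the median difference over all genes was -0.012. In all 223 genes both 16F16 arrays lay beyond both mock arrays. That held for 51.7% of all genes (24.1% above and 27.7% below), so this property alone is common. Adjusted p-values of the called genes lay between 0.024 and 0.0498. No gene was called when any 1 of the 6 arrays was left out. All 223 then kept their direction, which was fixed in advance, since their groups did not overlap on the 6 arrays. With all 6 arrays, 3139 of all genes (21.1%) had an unadjusted p under 0.05 in limma. Fitting the 4 arrays alone called 0 genes (2904 at an unadjusted p under 0.05 in limma). For this comparison that is the same fit as leaving out 1 securinine array, so it adds no further check. An intensity trend in the variance prior called 1808, and leaving out dim genes called 418.

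**Figure D1:**
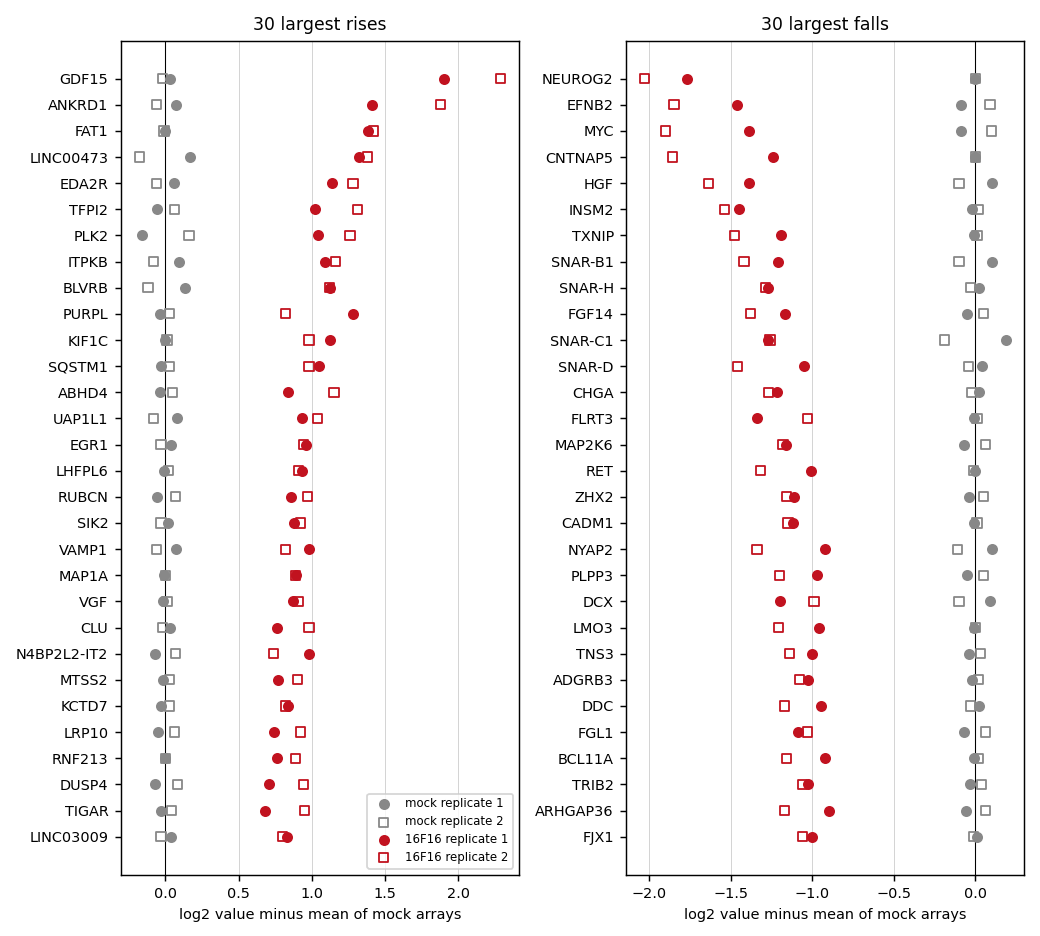
Log2 value minus the mean of the mock arrays (x axis) for called genes, one row per gene, with the 30 that rose most on the left and the 30 that fell most on the right. Grey marks are mock arrays and red marks 16F16 arrays, with filled circles for replicate 1 and open squares for replicate 2. GDF15 was at 1.90 and 2.28 and NEUROG2 at -1.76 and -2.03 on the 16F16 arrays.

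The 60 genes in the plot of the largest changes were picked among genes whose groups did not overlap, so the shared side of both 16F16 arrays was fixed by that choice. The distance between those arrays varied. FAT1, MAP1A and CADM1 gave nearly the same value on both. CNTNAP5 gave the widest gap of these 60 genes, with 5.72 on 16F16 replicate 1 and 5.10 on replicate 2 against 6.96 on both mock arrays.

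Among targets of p53, the transcription factor that answers DNA damage and other stress, 11 of 21 measured genes rose and 0 fell, against 0.719% of all genes higher, and the list's median difference was 0.59. Both 16F16 arrays were above both mock arrays in 20 of the 21, against 24.1% of all genes. GDF15, a secreted stress cytokine that ATF4 also induces, read 7.52 and 7.47 on the mock arrays and 9.39 and 9.78 on the 16F16 arrays. That was a difference of 2.09 ± 0.14 (SE, n = 2 arrays per group, adjusted p = 0.024). The death receptor gene EDA2R went from 8.33 and 8.21 to 9.41 and 9.55, with no overlap, a difference of 1.22 ± 0.092 (adjusted p = 0.024).

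Several members with known roles in p53-driven cell death and arrest were called. BAX, which opens the outer mitochondrial membrane in apoptosis, read 8.05 and 7.92 in mock and 8.65 and 8.69 with 16F16, a rise of 0.69 ± 0.088 (adjusted p = 0.038). The apoptotic nuclease gene AEN rose by 0.67 ± 0.075, and TP53INP1, which acts in p53 signalling and autophagy, by 0.59 ± 0.078. The polo-like kinase genes PLK2 and PLK3 rose by 1.15 ± 0.14 and 0.58 ± 0.078. Of these, PLK2 was the one with low mock values, at 3.66 and 3.98. Metabolic and mitochondrial members also rose: TIGAR, which lowers glycolytic flux, by 0.81 ± 0.12, SESN2, a brake on mTORC1, by 0.78 ± 0.11, and SPATA18, a factor of mitochondrial quality control, by 0.79 ± 0.10. The p53-induced long noncoding RNA PURPL rose by 1.05 ± 0.16, and it was higher on 16F16 replicate 1 (4.77) than on replicate 2 (4.31), with 3.45 and 3.52 in mock. The members nearest to a call were TRIAP1 (0.57 ± 0.10, adjusted p = 0.064), DRAM1 (0.89 ± 0.17, adjusted p = 0.071) and SESN1 (0.44 ± 0.093, adjusted p = 0.079). The BH3-only genes BBC3 and PMAIP1 were at 0.16 ± 0.080 and 0.09 ± 0.079, without a call.

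Of 21 measured NRF2 targets, 4 rose and 0 fell, against 0.719% of all genes higher and 0.779% lower, and the list's median was 0.26. BLVRB, which reduces biliverdin and flavins with NADPH, read 7.67 and 7.42 in mock and 8.66 on both 16F16 arrays, a rise of 1.11 ± 0.11 (adjusted p = 0.027). SQSTM1, the autophagy receptor p62 that also binds KEAP1, went from 6.77 and 6.83 to 7.85 and 7.78, a rise of 1.01 ± 0.080 (adjusted p = 0.026). TXNRD1, the cytosolic thioredoxin reductase, went from 7.48 and 7.51 to 8.13 and 8.15, and SRXN1, which restores overoxidised peroxiredoxins, from 7.32 and 7.47 to 8.01 and 8.0. These 2 rises were 0.64 ± 0.084 (adjusted p = 0.038) and 0.61 ± 0.087 (adjusted p = 0.043). In all 4 genes the 16F16 arrays lay within 0.08 of each other. KEAP1 (0.49 ± 0.077), the small MAF gene MAFG (0.61 ± 0.11) and RIT1 (0.56 ± 0.11) were nearest to a call, at adjusted p 0.052, 0.067 and 0.070. HMOX1, the inducible heme oxygenase, read 5.30 and 5.40 in mock but 5.11 and 5.70 with 16F16, so its groups overlapped. The transcription factor gene itself, NFE2L2, was at 0.05.

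The promoters of the 4 called NRF2 targets and of the genes with the largest changes were searched for the core of the antioxidant response element, TGACNNNGC on either strand, in the 300 bases from 250 before to 50 after the RefSeq start. Of the 27305 promoters in the table, 13.6% held it. Among the 4, TXNRD1 held 2 matches, at 99 and 8 bases before the start, and SQSTM1, BLVRB and SRXN1 held none in this window. EFNB2, which fell, held 1 match at 18 bases before the start, while GDF15, ANKRD1, FAT1 and NEUROG2 held none. The pair with a match is printed here because the same core stood in the promoter of a gene that rose and of a gene that fell. The sequences are from RefSeq (GRCh38.p14), 5′ to 3′ on the gene's strand, with the matches in capitals, and the second capital run of TXNRD1 is a match on the opposite strand. The TXNRD1 window is chr12:104215529-104215828 on the plus strand, and the EFNB2 window is chr13:106535613-106535912 on the minus strand.
TXNRD1: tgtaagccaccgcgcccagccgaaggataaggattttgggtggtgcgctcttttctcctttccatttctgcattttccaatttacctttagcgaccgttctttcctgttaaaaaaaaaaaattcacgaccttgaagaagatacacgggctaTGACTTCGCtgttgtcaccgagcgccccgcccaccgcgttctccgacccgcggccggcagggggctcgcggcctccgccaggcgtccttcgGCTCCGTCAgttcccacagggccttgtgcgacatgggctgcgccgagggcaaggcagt
EFNB2: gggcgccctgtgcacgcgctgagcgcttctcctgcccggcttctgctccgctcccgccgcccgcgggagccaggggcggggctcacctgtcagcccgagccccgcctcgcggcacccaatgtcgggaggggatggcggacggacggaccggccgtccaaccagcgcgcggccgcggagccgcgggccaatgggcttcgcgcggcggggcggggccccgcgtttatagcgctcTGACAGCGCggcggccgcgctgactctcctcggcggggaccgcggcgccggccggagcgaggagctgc
None of the 9 promoters found in the table held the core of the composite ATF4 and CEBP element (TGATGNAA), the E-box CACGTG or the heat shock element of 3 units, which stood in 3.7%, 7.4% and 0.5% of all promoters.

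In the wider list of 57 thioredoxin, peroxiredoxin and glutathione genes, 2 rose and 1 fell, and the median was 0.008. Of all genes, 0.719% rose and 0.779% fell. The one that fell, TXNIP, binds and inhibits thioredoxin and limits glucose uptake. It read 8.86 and 8.88 in mock and 7.68 and 7.39 with 16F16, a fall of 1.33 ± 0.12 (adjusted p = 0.027), and its arrays did not overlap. Its relative ARRDC4 was at -0.36 ± 0.099 and catalase (CAT) at -0.50 ± 0.12, neither called. Most of the glutathione transferases and peroxidases lay near 0, such as GPX4 at -0.02, GSTP1 at 0.10 and GPX1 at -0.09.

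No measured gene of the compound's named target family was called. Of 34 listed genes of the PDI family and its thiol oxidases, 21 were measured under a gene name. Limma called 0 of these 21 and gave 1 an unadjusted p under 0.05, and their median was -0.022, close to that of all genes. The thioredoxin-like membrane protein gene TMX4 had the lowest p, at 0.24 ± 0.087 (adjusted p = 0.20), and differences in the list ran from -0.2 to 0.47. The oxidase genes ERO1A and ERO1B, which feed disulfides to PDI, were at -0.13 ± 0.074 and 0.18 ± 0.10. None of 21 ER chaperones, sensors and degradation genes was called either, with a median of 0.13. An unadjusted p under 0.05 in limma was found for 5 of them, near the share of all genes (21.1%). Both 16F16 arrays were above both mock arrays in 13 of them and below in 1, against 24.1% and 27.7% of all genes. ERN1, the stress sensor IRE1, read 5.81 and 5.96 in mock and 6.47 on both 16F16 arrays (0.58 ± 0.090, adjusted p = 0.052). EIF2AK3, the sensor PERK, was at 0.33 ± 0.083 (adjusted p = 0.11), and XBP1 and ATF6 were each at -0.01. The lectin chaperone gene CALR was at 0.31 ± 0.075 (adjusted p = 0.10). In the heat shock list 0 of 14 were called (2 at an unadjusted p under 0.05), HSPA1A was at 0.08 ± 0.088, and the list's median was 0.061.

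Genes of the ATF4 and integrated stress response list went both ways. Of 20 members 2 rose (GDF15 and SESN2, both also in the p53 list) and 2 fell, against 0.719% and 0.779% of all genes. The median was -0.096. The falls were PSAT1, an enzyme of serine synthesis, from 10.34 and 10.40 to 9.81 and 9.74, and VLDLR, a lipoprotein receptor, from 8.05 and 8.04 to 7.45 and 7.34. They amounted to -0.59 ± 0.079 (adjusted p = 0.039) and -0.65 ± 0.079 (adjusted p = 0.035). DDIT3, the transcription factor CHOP, read 4.30 and 4.57 in mock and 5.13 and 5.15 with 16F16, without a call (0.71 ± 0.11, adjusted p = 0.053). The mTORC1 inhibitor gene DDIT4 (-0.72 ± 0.14, adjusted p = 0.069) and the secreted glycoprotein gene STC2 (-0.58 ± 0.12, adjusted p = 0.081) were lower without a call. Of the 20 members, 9 had an unadjusted p under 0.05 in limma, against 21.1% of all genes. ASNS was at -0.05, TRIB3 at -0.14 and ATF3 at 0.03.

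Among autophagy and lysosome genes, 2 of 38 rose (0.719% of all genes did), 0 fell, and the median was 0.13. Besides SQSTM1 these were TFE3, a transcription factor of lysosomal genes, which went from 7.37 and 7.35 to 8.0 on both 16F16 arrays (0.64 ± 0.075, adjusted p = 0.033). Both 16F16 arrays were above both mock arrays in 24 of the 38 and below in 1, against 24.1% and 27.7% of all genes. Lysosomal members without a call included the calcium channel gene MCOLN1 (0.58 ± 0.096, adjusted p = 0.057), the sialidase NEU1 (0.47 ± 0.090, adjusted p = 0.071) and FLCN, a regulator of mTORC1 and TFE3 (0.45 ± 0.090, adjusted p = 0.073). The autophagosome genes ATG5 and ATG7 were at -0.11 and -0.03. RUBCN, an inhibitor of autophagosome maturation outside this list, rose by 0.91 ± 0.093 (adjusted p = 0.028).

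**Figure D2:**
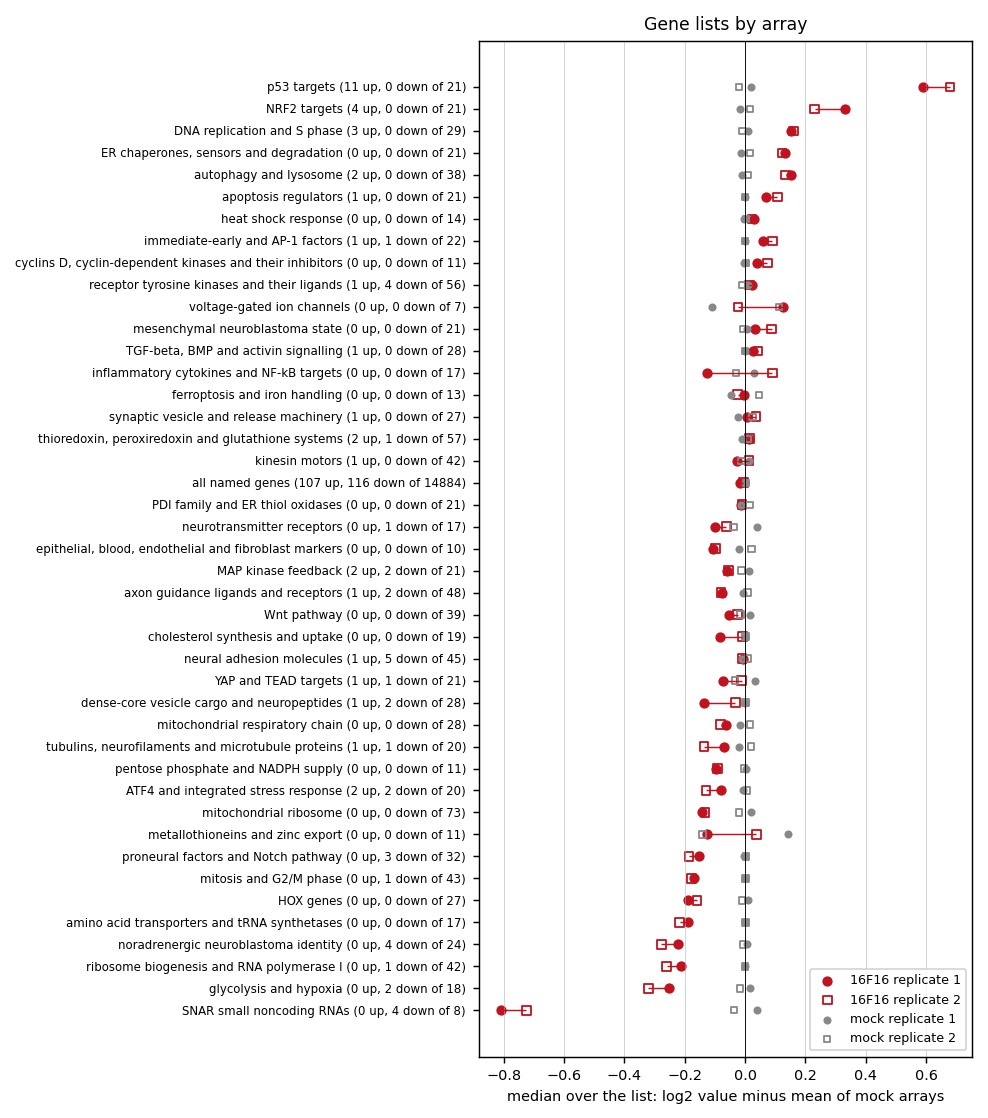
Median over each plotted gene list of the log2 value minus the mean of the mock arrays (x axis), for 16F16 replicate 1 (filled red circle), 16F16 replicate 2 (open red square) and the mock arrays (grey). Lists with very few measured genes and the list of interferon-stimulated genes are not plotted. Beside each name stand the numbers called higher and lower and the number measured; p53 targets were highest, at 0.588 and 0.679, and the SNAR list lowest, at -0.809 and -0.725.

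The plot of list medians shows that the 16F16 arrays gave medians of the same sign in the lists that moved furthest, such as the NRF2 targets at 0.33 and 0.23. In the list of inflammatory cytokines and NF-kB targets they were on opposite sides of 0, at -0.13 and 0.090, and in the metallothionein list at -0.13 and 0.037. In neither of those lists was a gene called (1 of 17 and 3 of 11 at an unadjusted p under 0.05 in limma, against 21.1% of all genes). Metallothionein genes are close paralogs, so their single values are uncertain.

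Among immediate-early and MAP kinase genes, single members moved in both directions. EGR1, an early-response zinc finger factor, read 6.61 and 6.54 in mock and 7.53 and 7.51 with 16F16, a rise of 0.95 ± 0.094 (adjusted p = 0.027). JUN was at -0.58 ± 0.095 (adjusted p = 0.056) and FOS at 0.36 ± 0.16 (adjusted p = 0.27), neither of these AP-1 genes called. Of 21 genes of MAP kinase feedback, the phosphatase DUSP4 (0.82 ± 0.12) and the Sprouty gene SPRY4 (0.64 ± 0.096) rose. In all, 2 of the 21 rose and 2 fell, against 0.719% of all genes higher and 0.779% lower. MAP2K6, which activates the kinase p38, and the phosphatase DUSP7 fell, MAP2K6 from 8.56 and 8.69 to 7.47 and 7.45 (-1.17 ± 0.15, adjusted p = 0.036) and DUSP7 by 0.60 ± 0.087. ANKRD1, an ankyrin repeat cofactor best known from heart muscle and as a YAP target, went from 4.25 and 4.12 to 5.59 and 6.06, a rise of 1.64 ± 0.17. Of 21 YAP and TEAD targets it was the only one to rise (0.719% of all genes did). FJX1 was the only one to fall, by 1.03 ± 0.10 (0.779% of all genes fell).

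Neurogenic factors and the Notch pathway, through which neighbouring cells restrain each other's neural differentiation, held some of the largest falls. Of 32 such genes 3 fell and 0 rose, against 0.779% of all genes lower, and the median was -0.16. NEUROG2, a proneural transcription factor, read 9.14 on both mock arrays and 7.37 and 7.11 with 16F16, a fall of 1.89 ± 0.13 (adjusted p = 0.024). INSM2, a zinc finger factor of neuroendocrine cells, went from 8.48 and 8.52 to 7.05 and 6.96, a fall of 1.50 ± 0.079 (adjusted p = 0.024). The Notch ligand DLL1 fell by 0.93 ± 0.089 from 4.98 and 4.87. Other parts of the pathway were lower without a call: the ligands JAG1 (-0.88 ± 0.14) and DLL3 (-0.50 ± 0.085), the glycosyltransferase LFNG (-0.84 ± 0.13) and the feedback gene NRARP (-0.77 ± 0.21). Their adjusted p-values were 0.052, 0.059, 0.052 and 0.13.

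In the list of noradrenergic neuroblastoma identity 4 of 24 genes fell, against 0.779% of all genes, and 0 rose, with a median of -0.24. In these bulk samples, fewer cells of a type and less RNA per cell cannot be told apart. RET, the receptor of GDNF-family ligands, read 8.19 and 8.18 in mock and 7.18 and 6.87 with 16F16, a fall of 1.17 ± 0.12 (adjusted p = 0.028). DDC, which makes dopamine from L-DOPA, went from 8.95 and 8.90 to 7.98 and 7.76, a fall of 1.06 ± 0.12 (adjusted p = 0.030). The LIM-only cofactor genes LMO3 and LMO1 fell by 1.08 ± 0.11 and 0.69 ± 0.10. The enzymes on either side of DDC in the pathway were not called, with TH at -0.19 and DBH at -0.11. Core lineage factors likewise lay close to 0, with PHOX2A at -0.06, HAND2 at -0.03 and GATA3 at 0.03, while ISL1 was at -0.42 ± 0.082 (adjusted p = 0.071). In the list of the mesenchymal neuroblastoma state 0 of 21 were called, with SNAI2 at 0.61 ± 0.12 and FN1 at 0.44 ± 0.12. An unadjusted p under 0.05 in limma was found for 9 of the 21, against 21.1% of all genes.

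Cargo of dense-core vesicles, the secretory granules of these cells, split. The granins CHGA and CHGB fell and VGF rose, 1 higher and 2 lower of 28 measured, against 0.719% of all genes higher and 0.779% lower. CHGA read 9.51 and 9.47 in mock and 8.27 and 8.22 with 16F16, a fall of 1.24 ± 0.092 (adjusted p = 0.024), and CHGB fell by 0.81 ± 0.097. VGF, a granin-like neuropeptide precursor, went from 8.61 and 8.64 to 9.50 and 9.54, a rise of 0.89 ± 0.074 (adjusted p = 0.026). The neuropeptide gene NPY was at 0.67 ± 0.12 (adjusted p = 0.067) and GAL at -0.41 ± 0.12 (adjusted p = 0.16). Neither CPE, a granule carboxypeptidase, at 0.06 nor SCG3 at -0.09 was called. The vesicle SNARE gene VAMP1 rose by 0.90 ± 0.13, the only one of 27 synaptic vesicle genes to be called (1.50% of all genes were).

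Adhesion, guidance and cytoskeletal genes of neurons were called in both directions. Of 45 neural adhesion genes 5 fell and 1 rose, and of 48 axon guidance genes 2 fell and 1 rose, against 0.779% of all genes lower and 0.719% higher. Both 16F16 arrays were below both mock arrays in 12 of the 45 adhesion genes and above in 16. Of all genes, 27.7% were below and 24.1% above, so that count alone does not set these genes apart. The adhesion genes that fell were CNTNAP5 (-1.55 ± 0.20), FLRT3 (-1.18 ± 0.12), CADM1 (-1.13 ± 0.085), CNTN4 (-0.80 ± 0.081) and LRRTM4 (-0.62 ± 0.075). The giant protocadherin FAT1 was the rise, from 7.87 and 7.86 to 9.25 and 9.29, a difference of 1.40 ± 0.096 (adjusted p = 0.024). EFNB2, the transmembrane ephrin whose promoter is shown above, read 8.92 and 9.10 in mock and 7.55 and 7.16 with 16F16, a fall of 1.65 ± 0.15 (adjusted p = 0.026). The netrin receptor genes UNC5D and UNC5B were called in opposite directions, at -0.73 ± 0.090 and 0.55 ± 0.081. Among 20 tubulin, neurofilament and microtubule genes, DCX, which stabilises microtubules of young neurons, fell from 5.88 and 5.69 to 4.59 and 4.80 (-1.09 ± 0.12, adjusted p = 0.030). MAP1A rose from 6.86 and 6.87 to 7.76 on both arrays (0.89 ± 0.076, adjusted p = 0.026), and tau (MAPT) was at -0.71 ± 0.11 (adjusted p = 0.051). The kinesin gene KIF1C, 1 of 42 motors measured, rose by 1.05 ± 0.086, and no other motor was called (1.50% of all genes were).

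Growth factors and their receptors were mostly near 0, with 1 rise and 4 falls among 56, against 0.719% of all genes higher and 0.779% lower. HGF, the ligand of MET, read 5.34 and 5.14 in mock and 3.85 and 3.60 with 16F16, a fall of 1.52 ± 0.15 (adjusted p = 0.027). FGF14, an intracellular FGF homolog that binds sodium channels, went from 8.29 and 8.39 to 7.17 and 6.96, a fall of 1.27 ± 0.10 (adjusted p = 0.026). FGF7 fell by 1.03 ± 0.14 but was dim, at 4.21 and 4.29 in mock and 3.15 and 3.30 with 16F16. The receptor kinase MERTK, which acts in clearance of dying cells, rose by 0.64 ± 0.084. The receptor KIT differed between the treated arrays, at 5.92 and 5.23 against 6.71 and 6.84 in mock, and was not called (-1.20 ± 0.28, adjusted p = 0.093). Its ligand KITLG was at 0.71 ± 0.13 (adjusted p = 0.061).

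MYC, the transcription factor of growth and ribosome genes, fell from 8.95 and 9.14 in mock to 7.65 and 7.14 with 16F16, a fall of 1.65 ± 0.18 (adjusted p = 0.030). Of 42 measured genes of ribosome biogenesis and RNA polymerase I, 1 was called, the helicase DDX10 (-0.54 ± 0.077, adjusted p = 0.043). An unadjusted p under 0.05 in limma was found for 24, against 21.1% of all genes. Both 16F16 arrays were below both mock arrays in 36, against 27.7% of all genes. The list's median was -0.24, with WDR75 at -0.50 ± 0.078, WDR12 at -0.55 ± 0.092 and BYSL at -0.47 ± 0.078, all 3 factors of subunit assembly, without a call. In the list of amino acid transporters and tRNA synthetases, the measured members were 17 synthetases, which charge tRNAs for translation, and their median was -0.21. Limma called none of the 17, with 9 at an unadjusted p under 0.05, against 21.1% of all genes. Both 16F16 arrays were below both mock arrays in 13, with TARS1 at -0.47 ± 0.078 and VARS1 at -0.60 ± 0.12. Of 73 mitochondrial ribosome genes 0 were called (24 at an unadjusted p under 0.05, against 21.1% of all genes), and the median was -0.13.

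Of 18 measured glycolysis and hypoxia genes 2 fell (0.779% of all genes did) and 0 rose. Their median was -0.25, and 16 had both 16F16 arrays below both mock arrays, as did 27.7% of all genes. Hexokinase 2 (HK2), the first enzyme of glycolysis, read 8.32 and 8.31 in mock and 7.43 and 7.26 with 16F16, a fall of 0.97 ± 0.092 (adjusted p = 0.027). PGAM1, a later step of the pathway, went from 8.64 and 8.49 to 7.88 and 7.73, a fall of 0.76 ± 0.097 (adjusted p = 0.036). LDHA (-0.43 ± 0.10), VEGFA (-0.54 ± 0.13) and the prolyl hydroxylase EGLN1 (-0.36 ± 0.089) were not called. TPI1 was the one member above 0, at 0.19, and GAPDH was at -0.06.

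Cell cycle genes were called in both directions. Both 16F16 arrays were above both mock arrays in 21 of 29 DNA replication and S phase genes and below in 3, against 24.1% and 27.7% of all genes. Of the 29 genes 3 rose, against 0.719% of all genes, and 0 fell, with a median of 0.16. These were E2F7, a repressor among the E2F factors, from 7.58 and 7.52 to 8.37 and 8.27, cyclin E2 (CCNE2), from 7.02 and 7.03 to 7.74 and 7.71, and the licensing factor CDT1, from 8.57 and 8.45 to 9.13 and 9.05. The rises were 0.77 ± 0.084 (adjusted p = 0.030), 0.70 ± 0.094 (adjusted p = 0.040) and 0.58 ± 0.088 (adjusted p = 0.049). The helicase subunits MCM7 and MCM6 were lower without a call, at -0.47 ± 0.077 and -0.32 ± 0.082, while MCM2 to MCM5 lay between -0.05 and 0.09. Of 43 mitosis genes 1 fell (0.779% of all genes did) and 0 rose, and the median was -0.16. Both 16F16 arrays were below both mock arrays in 32 of the 43, against 27.7% of all genes. The called gene was the mitotic kinase PLK1, from 10.91 and 10.84 to 10.19 and 10.29 (-0.64 ± 0.084, adjusted p = 0.038). Cyclin B1 (CCNB1), which activates CDK1 at mitotic entry, was at -0.63 ± 0.099 (adjusted p = 0.052), whereas FOXM1, which drives many of these genes, was at 0.33 ± 0.085 (adjusted p = 0.11).

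Among the remaining large rises, TFPI2, an inhibitor of serine proteases in the extracellular matrix, went from 8.66 and 8.78 to 9.74 and 10.03 (1.17 ± 0.12, adjusted p = 0.028). ITPKB, which phosphorylates inositol trisphosphate, rose by 1.12 ± 0.098, and the lipase-like gene ABHD4 by 0.99 ± 0.12. The salt-inducible kinase SIK2 rose by 0.90 ± 0.084, the extracellular chaperone CLU by 0.87 ± 0.10 and the E3 ligase RNF213 by 0.82 ± 0.092. Further large falls were the transcription factors ZHX2 (-1.14 ± 0.096) and BCL11A (-1.04 ± 0.14), the lipid phosphatase PLPP3 (-1.09 ± 0.12) and the pseudokinase TRIB2 (-1.04 ± 0.091). The histamine receptor HRH3, 1 of 17 neurotransmitter receptors measured and the only one called, fell by 1.03 ± 0.088 (1.50% of all genes were called).

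Of 1398 long noncoding RNA genes 10 rose and 1 fell (0.79% called), and of 1072 microRNA genes 10 rose and 3 fell (1.21% called), against 1.50% of all genes. LINC00473, a cAMP-responsive long noncoding RNA, read 5.43 and 5.08 in mock and 6.58 and 6.64 with 16F16, a rise of 1.35 ± 0.13 (adjusted p = 0.027). The SNAR genes are near-identical copies of a small noncoding RNA, so their separate values are uncertain. Of 8 measured, 4 fell (0.779% of all genes did), SNAR-B1, SNAR-C1, SNAR-D and SNAR-H, at -1.32 ± 0.14 to -1.26 ± 0.15. The other 4, SNAR-I, SNAR-G2, SNAR-F and SNAR-G1, were between -0.29 and -0.11 without a call. For antisense and intronic genes the strand of the measurement is not given in the sources used here. GAS5-AS1 rose by 0.80 ± 0.092 while GAS5 on the other strand was at 0.19 ± 0.085, and TSPEAR-AS2 fell by 1.35 ± 0.089 while TSPEAR was at -0.14 ± 0.17.

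The microRNA genes were named after their values were seen. Their probe sets were read in total RNA, and the level of the mature microRNA was not measured here. MIR9-1, 1 of the loci of the neuronal microRNA miR-9, read 4.32 and 4.85 in mock and 6.08 and 6.26 with 16F16, a rise of 1.59 ± 0.18 (adjusted p = 0.033). Another locus of the same microRNA, MIR9-3, was at 0.03 ± 0.23. MIR24-2 went from 5.17 and 5.21 to 5.98 and 6.09, a rise of 0.84 ± 0.080 (adjusted p = 0.027), while MIR23A and MIR27A, its neighbours in 1 cluster, were at -0.14 ± 0.11 and 0.42 ± 0.14. The largest rise of a microRNA gene was MIR548AL, from 3.89 and 3.95 to 5.74 and 6.04 (1.97 ± 0.13, adjusted p = 0.024). MIR3189 lies inside GDF15 and rose with it, from 4.01 and 3.69 to 5.04 and 4.95 (1.15 ± 0.14, adjusted p = 0.035). Whether its probe set reads GDF15 transcript was not tested. MIR432, MIR1224 and MIR487A fell by 0.75 ± 0.081, 0.77 ± 0.077 and 0.95 ± 0.13. MIR487A was dim, at 3.30 and 3.48 in mock and 2.56 and 2.33 with 16F16. The mature sequences of these 7 loci, 1 arm each, are shown because the seed (bases 2 to 8, in capitals) sets which transcripts a microRNA pairs with; they are from RefSeq (GRCh38.p14), 5′ to 3′, and no seed occurs more than once among them.
miR-9-5p: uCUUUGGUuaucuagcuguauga
miR-24-3p: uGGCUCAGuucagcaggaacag
miR-548al: aACGGCAAugacuuuuguacca
miR-3189-3p: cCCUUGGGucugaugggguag
miR-432-5p: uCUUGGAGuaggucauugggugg
miR-1224-5p: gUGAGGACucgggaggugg
miR-487a-3p: aAUCAUACagggacauccaguu

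Since the 16F16 arrays differed from each other, the change was also read in 2 pairs with no array in common, 16F16 replicate 1 minus mock replicate 1 and 16F16 replicate 2 minus mock replicate 2. Among the 7442 genes with a mean above the median of all named genes, these changes correlated at 0.745 (0.734 with the mock arrays exchanged), and over all 14884 genes at 0.405. These are correlations across genes, which are not independent replicates, of arrays that share the authors' normalization. Of the 107 genes that rose, 67 rose further on replicate 2 and 40 on replicate 1, with medians of 0.74 and 0.71. Of the 116 that fell, 83 fell further on replicate 2 and 33 on replicate 1, with medians of -0.80 and -0.75. The genes were called on these same arrays, so a similar size on both is in part a condition of the call.

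**Figure D3:**
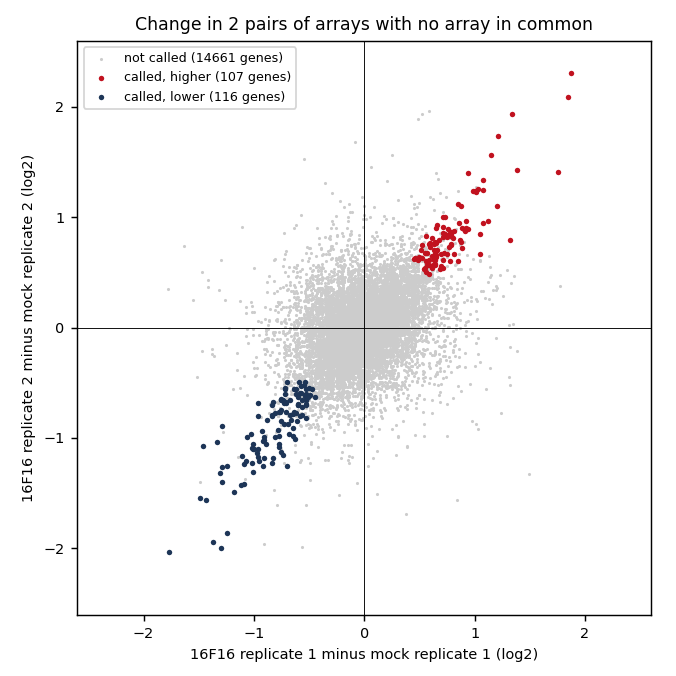
Change of each of 14884 genes in 16F16 replicate 1 minus mock replicate 1 (x axis) and in 16F16 replicate 2 minus mock replicate 2 (y axis), both as log2 differences. The 107 genes called higher (red) lie in the upper right, the 116 called lower (dark blue) in the lower left, and the 14661 others (grey) form the centre.

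The widest differences between the 16F16 arrays were in genes that were mostly not called. Among 6958 brighter protein-coding genes, 21 differed at least 1.5-fold between the 16F16 arrays, and 9 each between the mock and the securinine arrays. Of the 10 genes highest in replicate 1 over replicate 2, by a rule that asked for at least double the difference of the other groups, CNTNAP5 was called and 9 were not. HOXD13, a posterior HOX factor, read 6.14 and 5.50 against 6.72 on both mock arrays, and PDGFRL 6.23 and 5.52 against 6.72 and 6.90. In both genes the replicates agreed in direction and differed in size. ZNF600 and MRRF, a mitochondrial ribosome recycling factor, did not: MRRF read 6.72 and 5.87 against 6.38 and 6.36, above mock on one array and below it on the other. Across all genes with a mean above the median, 20 had one 16F16 array above both mock arrays and the other below both, at least 1.5-fold apart.

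None of the 10 genes highest in replicate 2 over replicate 1 was called. The AP-1 gene FOSL1 read 5.65 and 6.42 with 16F16, 5.17 and 5.33 in mock and 7.71 and 7.82 with securinine. CD68, a lysosomal membrane glycoprotein, read 6.57 and 7.17 with 16F16, 5.83 and 5.99 in mock and 8.10 and 8.09 with securinine. In both of these genes replicate 2 lay closer to the securinine arrays. HMOX1 had the same order, with 5.11 and 5.70 against 6.65 and 6.57 with securinine, and in the granin gene SCG2 replicate 1 (6.49) lay below the mock arrays (7.11 and 7.40) and replicate 2 (7.16) between them. Over the 7442 brighter genes, replicate 2 minus replicate 1 of 16F16 correlated at 0.197 with securinine minus mock, which use no array in common. Of the 57 brighter protein-coding genes at least 2-fold higher with securinine, 16F16 replicate 2 was above replicate 1 in 44, with a median difference of 0.070. Of the 144 at least 2-fold lower, it was below in 113, with a median of -0.133. The cause of the difference between the 16F16 arrays was not tested.

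**Figure D4:**
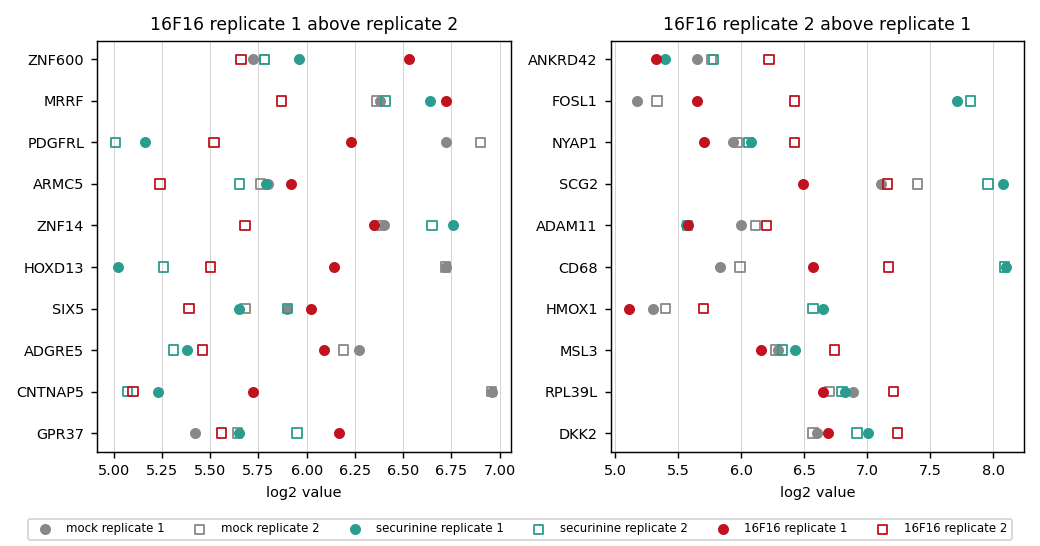
Log2 values on all 6 arrays (x axis) of the 10 genes furthest apart between the 16F16 arrays in each direction, with mock in grey, securinine in green and 16F16 in red; filled circles are replicate 1 and open squares replicate 2. In FOSL1, CD68 and HMOX1 the open red square lies between the filled red circle and the green marks.

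Against securinine, 89 of the 223 called genes differed between the treatments (39 higher and 50 lower with 16F16), in the same fit and over all genes, where 1416 of 14884 (9.51%) differed. The 223 genes were picked on the same 16F16 arrays and the same estimate of the spread. A larger share among them is therefore in part a result of that choice. The doses were 4 µM for 16F16 and 30 µM for securinine, so compound and dose cannot be told apart. Of the 107 genes that rose with 16F16, 32 were lower and 19 higher than with securinine. GDF15 read 9.39 and 9.78 with 16F16 and 11.38 and 11.44 with securinine, a difference of -1.83 ± 0.14 (adjusted p = 0.0088). In the direct contrast 13 p53-list genes passed, all lower with 16F16, and 10 of the 11 that rose with 16F16 were lower than with securinine, TIGAR being the exception (-0.44, not called). EGR1 differed by -1.39 ± 0.094 and FAT1 by -1.55 ± 0.096. Among the falls, TXNIP read 7.68 and 7.39 with 16F16 against 5.37 and 5.52 with securinine, a difference of 2.09 ± 0.12 (adjusted p = 0.0088), and MAP2K6 differed by 1.56 ± 0.15.

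A smaller group did not change in the same direction with securinine. In 14 of the 89 genes the rounded securinine difference from mock did not have the sign of the 16F16 difference. Among these, GCH1 and TOX differed from mock by 0 after rounding, so they lay on neither side. In 6 of the 14, CCNE2, CDT1, CRABP2, LHFPL6, MIR1224 and SPMIP4, the change with securinine was in the opposite direction and was itself called. CCNE2 read 7.74 and 7.71 with 16F16, 7.02 and 7.03 in mock and 6.60 and 6.40 with securinine, a difference of 1.23 ± 0.094 between the treatments (adjusted p = 0.0088). CDT1 had the same order, with 9.13 and 9.05, 8.57 and 8.45, and 8.03 and 7.94, a difference of 1.11 ± 0.088 (adjusted p = 0.0088). In the DNA replication list 16 of 29 genes passed in the direct contrast. CRABP2, which carries retinoic acid to its nuclear receptors, ran the opposite way, with 7.38 and 7.36 with 16F16, 8.13 and 8.02 in mock and 8.58 and 8.52 with securinine (-1.18 ± 0.083, adjusted p = 0.0088). BLVRB of the NRF2 list read 8.66 on both 16F16 arrays and 7.57 and 7.42 with securinine, overlapping the mock values of 7.67 and 7.42 (1.16 ± 0.11, adjusted p = 0.0099). The other 3 called NRF2 targets were lower with 16F16 than with securinine, SRXN1 by -0.60, TXNRD1 by -0.48 and SQSTM1 by -0.46. EFNB2 and DCX fell with 16F16 and were at 8.72 and 8.67, and 5.58 and 5.70, with securinine, differences of -1.34 ± 0.15 and -0.94 ± 0.12 (adjusted p = 0.013 and 0.016). Both EFNB2 values with securinine were below the lowest mock value of 8.92, without a call.

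**Figure D5:**
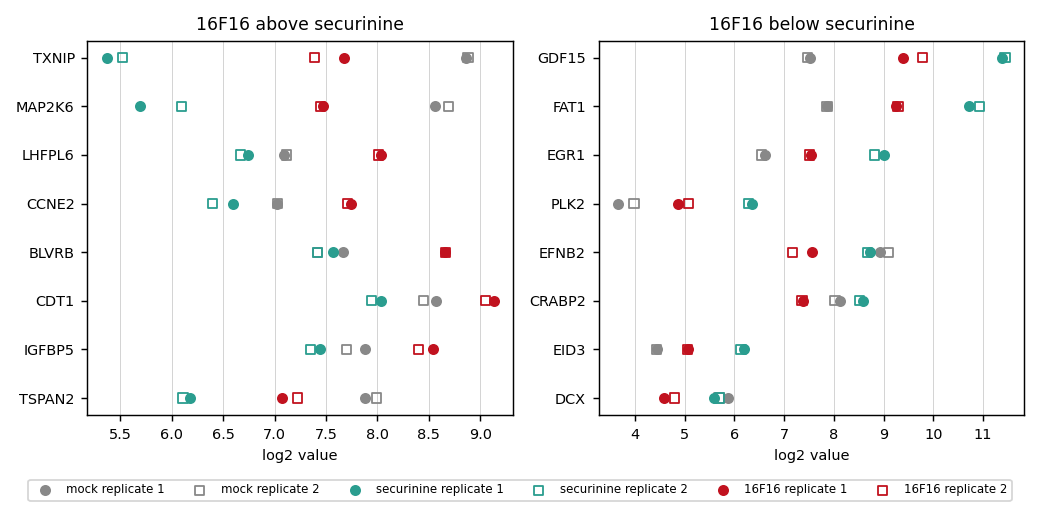
Log2 values on all 6 arrays (x axis) of the 8 genes furthest above and the 8 furthest below securinine among genes called for 16F16 against mock, with mock in grey, securinine in green and 16F16 in red. In CCNE2, CDT1 and CRABP2 the mock marks lie between those of the treatments.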

How the data were processed

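RNA of SH-SY5Y cells was read on 6 arrays in 3 groups of 2 (mock, securinine, 16F16), grouped by the labels' treatment. The authors deposited log2 expression values of 53617 probe sets, without missing values; RMA and limma are named, without versions, per the submitters' processing notes. RMA normalizes between arrays, and would take out a shift common to most genes. Detection calls and scanner data were not used here, and the array's annotation build is not given in the sources used here.

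Probe sets were named through a platform annotation table (16098 with 1 symbol, 37519 unnamed). All 16098 were matched by Entrez identifier to RefSeq genes of assembly GRCh38.p14. For 779 genes with several probe sets the brightest over the 6 arrays was taken, leaving 14884 genes, 11916 of them protein-coding. NQO1, which the series title names, was left out and is not analysed here.

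Tests used limma 3.58.1 in R 4.3.3 (lmFit and eBayes on all 6 arrays, group as the only term, two-sided). The fit had 3 residual and 2.68 prior degrees of freedom. P-values were adjusted by Benjamini-Hochberg over the 14884 genes, and genes were called under 0.05. Errors are standard errors of the fit (SE), with a median of 0.11. The comparisons were 16F16 against mock and, from the same fit, 16F16 against securinine. The difference between the 16F16 arrays was described without a test.

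The members and the 46 gene lists, which hold 1087 measured genes, were chosen with earlier results of these data known. Many listed genes had no named probe set: 21 of 37 p53 targets and 21 of 40 NRF2 targets were measured. Lists are described by counts and medians, and neither is independent support. The genes named were the 30 largest rises and falls among called genes whose groups did not overlap, leaving out microRNA and other small RNA genes, uncharacterised loci, immune receptor segments, olfactory receptors, antisense genes and pseudogenes. SNAR genes were kept. Also named were the called members of each list and the 3 members with the lowest p without a call, the 10 genes furthest apart between the 16F16 arrays each way, and the 8 furthest from securinine each way. Other genes named in the text, including list members near 0, microRNA genes, antisense genes and relatives of a called gene, were chosen after their values were seen. Alternatives covered the arrays in the fit, the variance prior, the replicate block, normalization, dim genes, probe sets per gene, unnamed probe sets and leaving out each array. Promoter and microRNA sequences are from RefSeq tables. MYC, MIR3143 and MIR548A1 had no entry there under these names and no sequence of them is shown.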

Additional observations from a re-analysis of the deposited data

How the results depend on the processing

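The 223 calls (107 higher, 116 lower, 52 at least 2-fold) and the 89 of them that differed from securinine depended on the estimate of the spread. Each count was 0 to 0 (that against securinine by construction) when any 1 of the 6 arrays was left out, with 2099 to 2904 genes at an unadjusted p under 0.05 in limma. Fitting the 4 arrays alone, the replicate block and testing all 53617 probe sets each called 0 genes, 0 higher, 0 lower and 0 at least 2-fold (2904, 2856 and 7250 at an unadjusted p under 0.05), so the count differing from securinine, which is taken among called genes, was 0 with the block or all probe sets by construction. The variance prior with an intensity trend called 1808 genes (853 higher, 955 lower, 827 of them differing from securinine), and leaving out dim genes called 418 of 13327 (197 higher, 221 lower, 161 differing). Of the 223 genes, 220 were called with the trend and 219 without dim genes. A robust prior gave 199 calls, quantile normalization 244, median centring 200 and the mean of a gene's probe sets 223, of which 199, 217, 192 and 222 were among the 223. Of the 95 called genes picked by the naming rule, 8 lost the call with the robust prior, 2 with quantile normalization and 7 with median centring, and none changed direction under any setting run. The p53 list's median stayed between 0.588 and 0.679 and the NRF2 list's between 0.230 and 0.332 under the normalization, probe set, dim gene and left-out array settings. Differences between replicates 1 and 2 correlated across all genes, dim ones included, at 0.038 (16F16 and mock), -0.050 (16F16 and securinine) and -0.032 (mock and securinine). With 2 arrays a group, such values cannot settle whether the replicate numbers pair the samples. With 2 arrays a group, no array could be tested as an outlier. Dim probe sets could not be told from background, and among called genes FGF7, LEP, MIR4693, MIR4755, MIR4779, MIR487A and MIR548A1 did not exceed the lower quartile on 1 or more arrays.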

Other observations

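The following called genes stood in none of the gene lists and were chosen after their values were seen. Several genes of RNA processing were lower with 16F16. SNRPA and SNRPD1, proteins of the spliceosomal small nuclear ribonucleoproteins, fell by 0.70 ± 0.11 and 0.52 ± 0.077, the former from 10.14 and 10.03 to 9.50 and 9.27. The nuclear exonuclease XRN2 fell by 0.55 ± 0.081, the pseudouridine synthase PUS7 by 0.67 ± 0.095 and POLR3B, a core subunit of RNA polymerase III, by 0.82 ± 0.096. The small Cajal body RNA genes SCARNA17 and SCARNA7, which guide modification of spliceosomal RNAs, rose by 1.13 ± 0.10 and 0.79 ± 0.080. SCARNA17 read 9.11 and 8.98 in mock and 10.12 and 10.21 with 16F16.

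Neural transcription regulators outside the lists were also among the falls. SOX4 went from 11.12 and 11.17 to 10.47 and 10.39 (-0.72 ± 0.090), TFAP2B, a factor of sympathetic neurons, from 10.77 on both mock arrays to 10.11 and 9.93 (-0.76 ± 0.10), and the homeobox gene MEIS1 from 7.14 and 7.16 to 6.22 and 6.13 (-0.98 ± 0.080). The corepressor RCOR2 fell by 0.96 ± 0.12 and TFAP4, known as a MYC target, by 0.70 ± 0.085. GCH1, which makes the cofactor of tyrosine hydroxylase, fell by 0.81 ± 0.11, and the DNA repair gene NBN by 0.91 ± 0.095. Among the rises, RPS27L, a ribosomal protein paralog known as a p53 target, went from 5.45 and 5.39 to 6.11 and 6.32 (0.79 ± 0.10). The p53 relative TP73 rose by 0.71 ± 0.091 and was above its level with securinine by 0.62 (adjusted p = 0.021), and the T-box factor TBX3 rose by 0.70 ± 0.087. Adjusted p-values for 16F16 against mock of the genes in these paragraphs lay between 0.026 and 0.049 in limma (n = 2 arrays per group).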
